A study of Rattus norvegicus with 4 samples.

Results

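Mitochondrial ribosomal protein genes encode the proteins of the ribosome inside mitochondria. The members are all probe sets with a single gene symbol that begins with Mrpl (large subunit) or Mrps (small subunit) followed by a number. They came to 73 of 13810 named genes on the arrays, 46 of the large and 27 of the small subunit. Expression was measured with Affymetrix arrays in the lateral wall of the rat cochlea, from female Sprague-Dawley rats of 8 to 10 weeks and 180 to 210 g. The left round window niche had been infused with 300 mM 3-nitropropionic acid (3-NP) in saline, or with saline alone as the control, and tissue was taken 1 or 3 days later. 3-NP inhibits mitochondrial succinate dehydrogenase, and the labels call the model one of acute mitochondrial dysfunction. In all rats the right cochlea had been destroyed surgically, per the labels' protocols. All rats had pentobarbital anaesthesia, local lidocaine and a piece of gelatin left on the niche. The labels name the tissue as the upper basal turn in one field and as the second turn, stria vascularis excluded, in another, and how many rats went into an array is not stated in them. Each of the 4 groups had 1 array. Differences therefore have no replicate check and no p-value, and the number of arrays limits the precision of every value.

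The mitochondrial ribosome makes the few proteins encoded by mitochondrial DNA, which are core subunits of the respiratory chain and of ATP synthase. Its RNAs come from the mitochondrial genome, whereas its proteins come from nuclear genes, are made in the cytosol and are imported. Some of these proteins descend from bacterial ribosomal proteins and others were added in the mitochondrial lineage. The large subunit joins amino acids, and the small subunit reads the messenger RNA.

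Day and array design coincided, so each day is a pair of arrays of its own. The day 1 design held 71 members on 82 probe sets and the day 3 design 19 members on 22 probe sets, with 17 genes on both. A gene counted as measured when its signal reached the array's median (50th percentile) in at least 1 array of the pair, and it was represented by its brightest probe set. This left 69 members at day 1, 45 of the large and 24 of the small subunit, and 15 at day 3, 9 of the large and 6 of the small subunit. Of the measured members, Mrpl38 at day 1 and Mrpl17 at day 3 reached the median in the 3-NP array alone, so their difference is tied to their passing. Whole-array median signals were 44.9 (saline) and 60.7 (3-NP) at day 1. On the day 3 design they were 18.7 and 19.97. The median gene had a log2 ratio of 3-NP over saline of 0.44 at day 1 and 0.10 at day 3, and ratios below are given relative to it (0 is the median gene) unless said to be as deposited. In bulk tissue, fewer cells of a type and less RNA per cell cannot be told apart.

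For spread, genes with several measured probe sets on a design were used. From 744 such genes at day 1, the SD attached to 1 probe set was 0.35 on the log2 scale, and from 805 genes at day 3 it was 0.47. This covers differences between probe sets, not between animals. Actb control probe sets at the 3' end read 2.53 to 3.22 times those at the 5' end across the arrays. Among the markers of cells the dissection could hold, 7 spiral ligament fibrocyte genes summed at day 1 to a signal of 10664 in saline against 5859 in 3-NP, and 6 stria vascularis and melanocyte genes had 2325 and 1161, with Kcnj10 at the floor of both arrays. Of the 7 fibrocyte genes 6 were at least 1.5-fold lower relative to the median gene, and Vim went the other way, with 383 and 900. At day 3 Coch, the defining fibrocyte gene, read 6548 in saline against 5677 in 3-NP, and Tbx18, the other measured fibrocyte gene, 351 against 165. On that day 5 stria genes summed to 3943 and 2302, mostly from Atp1b2 (2881 and 1356). Atp1b2, Bsnd and Tyr were lower, whereas Tyrp1 went from 4.62, under the floor, to 69.4 and Pmel from 631 to 750. The leukocyte genes Mrc1 and Cd163 summed to 85.7 and 43.5. The endothelial genes Tek and Kdr summed to 146 and 100, with Kdr at the floor in both arrays. Of these leukocyte and endothelial genes only Kdr was also on the day 1 design, with 51.4 and 213 there. Endothelial genes at day 1 summed to 208 in saline and 565 in 3-NP, erythrocyte genes to 3832 and 7521, and bone and cartilage genes to 1632 and 653. Of 6 skeletal muscle genes at day 1, Acta1, Mb, Myh4 and Tnnt3 were at the floor in both arrays, and 8 leukocyte genes summed to 1424 in saline and 2344 in 3-NP, with Aif1, Itgam and Ptprc at the floor in both. The part of these cell types in the ratios below was not tested.

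Promoter sequences of the members were searched for a few known motifs. RefSeq's promoter windows of the GRCr8 assembly, 250 bases before and 50 bases after a gene's start, were matched by gene identifier for 59 of the 73 members. Of protein-coding genes with a window, 58.6% had one placed exactly at the annotated gene start. Positions and distances below therefore depend on the start that the window uses. The windows below end at the base before the start (position -1) and read 5' to 3' on the gene's strand, with whole matches to 3 motifs in capitals: GCGCA, any base, then GCGC for NRF1 and CCGGAAG for ETS factors such as GABP (also called NRF-2), both known activators of nuclear genes for mitochondrial proteins, and AAGATGGC for YY1. Both strands were searched. The genes were chosen after their values were seen. Mrps18b was the highest small subunit gene at day 1, Mrpl48 was low on both days, Mrpl17 was the highest at day 3, Mrpl53 was read by the same probe set on both days, and Mrpl40 had the lowest single probe set at day 1. They lie at chr20:2842756-2843005 (+ strand), chr1:164351377-164351626 (- strand), chr1:169575700-169575949 (- strand), chr4:117172793-117173042 (+ strand) and chr11:95637501-95637750 (+ strand).
Mrps18b: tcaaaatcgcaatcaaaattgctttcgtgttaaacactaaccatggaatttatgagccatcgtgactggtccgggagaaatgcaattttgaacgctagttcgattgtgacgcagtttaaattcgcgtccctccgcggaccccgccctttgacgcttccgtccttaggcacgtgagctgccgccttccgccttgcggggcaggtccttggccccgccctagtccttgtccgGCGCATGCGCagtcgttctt
Mrpl48: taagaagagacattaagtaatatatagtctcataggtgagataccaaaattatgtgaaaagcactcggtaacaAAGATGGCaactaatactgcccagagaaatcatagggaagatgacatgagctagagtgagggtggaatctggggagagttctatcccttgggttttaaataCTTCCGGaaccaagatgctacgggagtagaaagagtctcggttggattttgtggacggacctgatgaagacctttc
Mrpl17: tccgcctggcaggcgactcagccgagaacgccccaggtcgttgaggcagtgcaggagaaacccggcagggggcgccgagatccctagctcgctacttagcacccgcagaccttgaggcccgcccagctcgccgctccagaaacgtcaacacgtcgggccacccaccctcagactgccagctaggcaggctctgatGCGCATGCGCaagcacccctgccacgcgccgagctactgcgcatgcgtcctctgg
Mrpl53: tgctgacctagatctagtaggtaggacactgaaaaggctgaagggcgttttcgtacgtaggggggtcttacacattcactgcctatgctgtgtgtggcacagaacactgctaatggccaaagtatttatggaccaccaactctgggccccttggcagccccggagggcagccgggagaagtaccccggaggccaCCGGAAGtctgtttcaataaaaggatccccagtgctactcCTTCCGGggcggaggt
Mrpl40: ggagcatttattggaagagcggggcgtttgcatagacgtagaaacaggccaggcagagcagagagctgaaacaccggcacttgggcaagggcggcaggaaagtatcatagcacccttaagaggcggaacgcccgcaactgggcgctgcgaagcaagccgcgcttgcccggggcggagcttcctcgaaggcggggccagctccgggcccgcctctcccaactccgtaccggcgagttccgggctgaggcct

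The NRF1 letters stand from position -20 to -11 in Mrps18b and from -55 to -46 in Mrpl17, and in both the match reads the same on either strand. Mrpl53 carries the ETS letters at -56 to -50 and, on the other strand, at -16 to -10. Mrpl48 carries them on the other strand at -76 to -70, with the YY1 letters at -177 to -170. In Mrps18b an ETS match spans the start (-3 to 4) and is therefore not in capitals. Mrpl40 held none of the 3 motifs in its whole window, which says only that these letters are not there.

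Across the 59 members, 9 genes (15.3%) had an NRF1 match, against 6.20% of 19005 protein-coding genes with windows of the same length. An ETS match was found in 20 members (33.9%, against 11.6% of all genes) and a YY1 match in 14 (23.7%, against 4.08%). At least 1 of the 3 occurred in 33 members (55.9%), against 19.4% of all genes. The E-box CACGTG, bound by MYC, was in 6 members (10.2%, against 7.69%), and GAAA, any pair of bases, then GAAA, the letters of an interferon response element, in 3 (5.08%, against 3.90%). Matches of different motifs did not overlap in any member. The median GC content was 56% in the members' windows and 55% over all. These are descriptions of letters, not of bound factors.

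**Figure D1:**
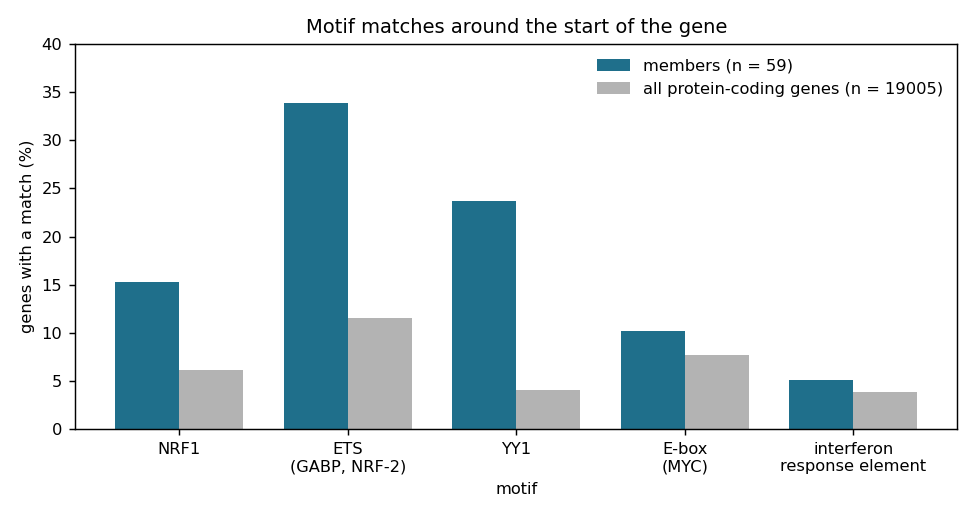
Percent of genes (vertical axis) whose promoter window held each of 5 motifs (horizontal axis), for 59 mitochondrial ribosomal protein genes (blue) and 19005 protein-coding genes (grey). The blue bars for the ETS and YY1 motifs reach 33.9% and 23.7%, against 11.6% and 4.08%.

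The YY1 matches often lay after the start, in the members and over all genes. In 10 of the 14 members with a match the letters lay wholly after the start, each time on the sense strand. Of 775 protein-coding genes with a match, 372 had one after the start, on either strand. Over all protein-coding windows, 325 held the sense letters and 57 the antisense letters wholly after the start. The site is shown for both S18 paralogues with such a match and for 3 further members, as 20 bases on the sense strand with the match in capitals, to make their likeness visible. They lie at chr20:2843028-2843047 (+ strand), chr9:22367367-22367386 (- strand), chr2:32474227-32474246 (+ strand), chr5:127074948-127074967 (- strand) and chr5:68668048-68668067 (- strand) in GRCr8.
Mrps18b: tgcgacAAGATGGCtgcctc
Mrps18a: gttcccAAGATGGCggccct
Mrps27: cgctccAAGATGGCggcccc
Mrpl37: cgggcaAAGATGGCggcgtc
Mrpl50: ttgtcgAAGATGGCggcgct

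The match begins at position 29 in Mrps18b, 1 in Mrps18a, 30 in Mrps27, 7 in Mrpl37 and 27 in Mrpl50. The members' ratios are given by motif as a description. At day 1 the median relative log2 ratio was 0.07 in 13 measured members with a YY1 match and -0.13 in 42 without, 0.11 in 9 with an NRF1 match and -0.10 in 46 without, and -0.19 in 18 with an ETS match and -0.04 in 37 without. For the interferon response element it was -0.50 in 2 members, Mrps33 and Mrps21, and -0.06 in 53 without, and for the E-box -0.05 in 5 and -0.09 in 50. At day 3 it was -0.15 in 5 members with an ETS match and 0.20 in 8 without, -0.02 in 3 with an NRF1 match and 0.09 in 10 without, and -0.10 in 2 with a YY1 match and 0.07 in 11 without. The ranges with and without a match overlapped for ETS, NRF1 and YY1 on both days.

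Members were also often placed head to head with another gene. A protein-coding neighbour on the opposite strand started within 1000 bases upstream of 17 of 59 members (28.8%), against 7.22% of all protein-coding genes. Mrpl46 and Mrps11 face each other at 234 bases, and Mrpl47 faces Ndufb5, a complex I subunit gene, at 244. Mrpl49 stands 186 bases from Fau, which encodes a cytosolic ribosomal protein as a fusion. Both genes of 7 such pairs were measured at day 1, and in 6 pairs (85.7%) both ratios had the same sign, against 93 of 169 such pairs (55.0%) over all genes. With 7 pairs this is a description. Mrps18b (1.02) faces Ppp1r10 (0.42), Mrpl32 (0.35) faces the proteasome gene Psma2 (0.40), and Mrpl18 (0.17) faces the chaperonin gene Tcp1 (0.26). Mrpl46 (0.29) and Mrps11 (-0.22) were the pair on opposite sides.

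At day 1 the mitochondrial ribosomal protein genes as a family stayed close to the median gene in 3-NP, with few members standing apart. The median relative log2 ratio of the 69 measured members was -0.08. Their middle 50% ran from -0.24 to 0.24, against -0.40 to 0.41 for all 6533 measured genes, and their SD was 0.42 against 0.78. Of the 69, 59 (85.5%) lay within 1.5-fold of the median gene, compared with 66.3% of all genes. At least 1.5-fold higher were 7 members (10.1%), with a background of 17.1% of all genes, and at least 1.5-fold lower were 3 (4.35%), with a background of 16.6%. At least 2-fold higher were 2 members (background 7.76%), or 1 without Mrpl38, and at least 2-fold lower were 0 (background 6.47%). With 1 array per group these counts rest on size alone. As deposited, without centring, 59 of 69 ratios were at or above 0. In that setting 23 members were at least 1.5-fold higher, with a background of 40.2% of all genes. At least 1.5-fold lower were 0, with a background of 6.09%.

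The large subunit had a median of -0.05 over 45 genes, with 24 below the median gene, and the small subunit -0.10 over 24 genes, with 16 below it (0.39 and 0.33 as deposited). Their ranges overlapped almost fully, from -0.76 to 1.15 and from -0.63 to 1.02. With Mrps30 and Mrps18a, whose products sit in the large subunit of the mammalian ribosome, counted there, the medians were -0.04 and -0.11. The 29 members found in mitochondria alone had a median of -0.01 and the 40 with a bacterial counterpart -0.11.

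**Figure D2:**
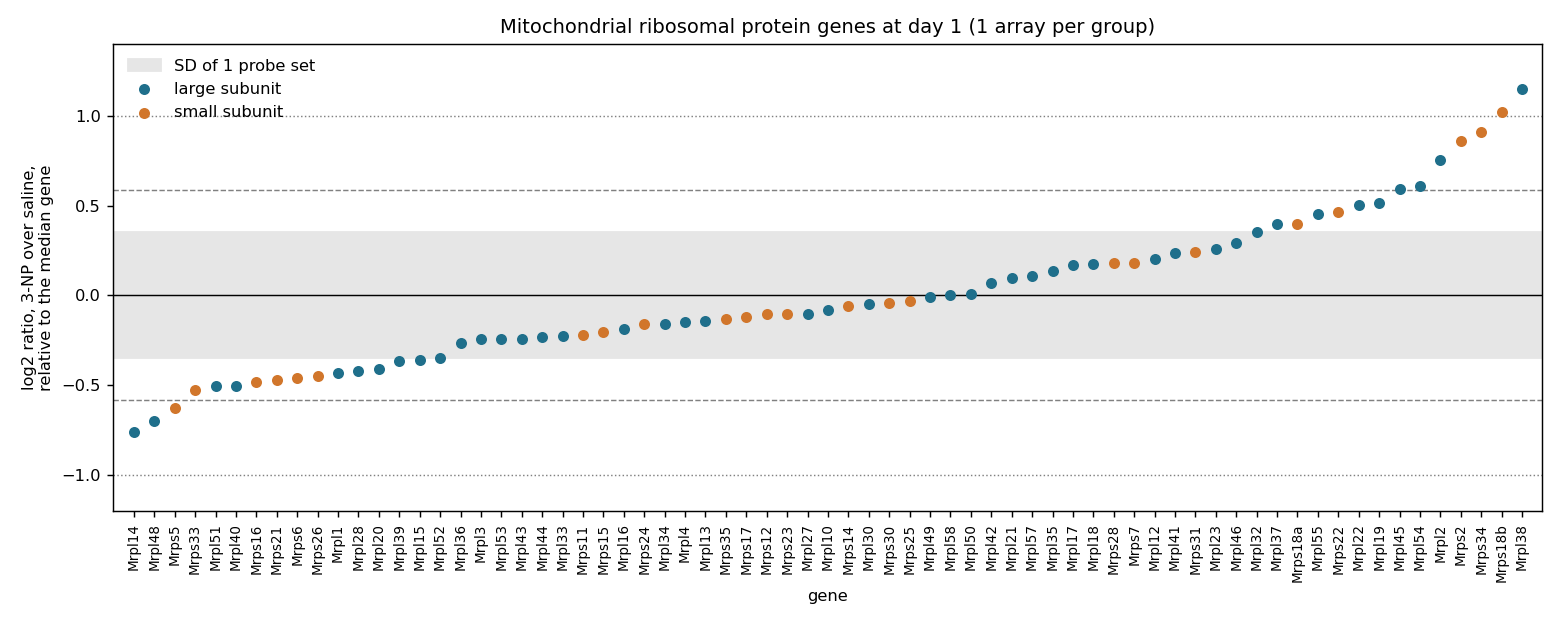
Relative log2 ratio of 3-NP over saline at day 1 (vertical axis) for each of the 69 measured members in order (horizontal axis), coloured by subunit; the grey band is 1 SD of a single probe set (0.35), dashed lines mark 1.5-fold and dotted lines 2-fold. The subunits are intermixed, 7 genes lie above the upper dashed line and 3 below the lower one.

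The highest member was Mrpl38, a protein of the central protuberance of the large subunit, which read 21.8 in saline and 65.4 in 3-NP. Its ratio was 1.15, or 2.21-fold, and its saline signal was below that array's median. Mrps18b, 1 of the S18 family of small subunit proteins, had 102 in saline and 282 in 3-NP, a ratio of 1.02 or 2.03-fold. Its saline signal was well clear of the floor of 17.1, so this is the firmer of the 2-fold differences. Mrps34, a small subunit protein without a bacterial counterpart, had 105 and 267 (1.88-fold higher relative to the median gene).

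Mrps2 followed, with 75.7 in saline and 186 in 3-NP (1.81-fold). It encodes a small subunit protein with a bacterial counterpart. Mrpl2, whose product lies near the peptidyl transferase centre, had 61.2 and 140 (1.69-fold). Mrpl54, a large subunit protein added in the mitochondrial lineage, had 339 and 700 (1.52-fold). Mrpl45 had 109 and 224 (1.51-fold), and its product helps anchor the ribosome to the inner membrane, where the nascent chains are inserted. Mrpl19 came next at 0.51, with 64.0 and 124. In each of these genes the 3-NP signal was the higher one as deposited as well, which follows from the positive ratio of the median gene.

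At the low end Mrpl14 had 90.8 in saline and 72.5 in 3-NP, 1.70-fold lower relative to the median gene. Its product lies at the face of the large subunit that meets the small one. Mrpl48, of the central protuberance, had 226 and 188 (1.62-fold lower), and Mrps5, a small subunit protein that lines the path of the messenger RNA, had 98.6 and 86.4 (1.55-fold lower). These are the members at least 1.5-fold lower, and their 3-NP signal was below saline as deposited too. This follows from the centring, since 1.5-fold is 0.58 on the log2 scale and the median gene was at 0.44. The next were Mrps33 (-0.53), Mrpl51 (-0.50), Mrpl40 (-0.50), Mrps16 (-0.48) and Mrps21 (-0.47). Mrps6, a small subunit gene, had nearly equal deposited signals of 1061 and 1044 and a relative ratio of -0.46.

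Grouped by place in the ribosome, a choice made after the values were seen, members had these ratios. In the central protuberance, Mrpl38 (1.15), Mrpl46 (0.29), Mrpl58 (0.002), Mrpl40 (-0.50) and Mrpl48 (-0.70) covered nearly the whole range of the family. Mrpl58 encodes a peptidyl-tRNA hydrolase built into the ribosome, with 139 in saline and 188 in 3-NP. Around the exit of the nascent chain lay Mrpl45 (0.59), Mrpl22 (0.51), Mrpl23 (0.26) and Mrpl44 (-0.23). The stalk genes Mrpl12 (0.20) and Mrpl10 (-0.08), whose products recruit translation factors, were both within 1.5-fold of the median gene. Of 3 small subunit genes picked for decoding and the path of the messenger RNA, Mrps12 was at -0.11, Mrps24 at -0.16 and Mrps5 at -0.63. All were below the median gene, as were 16 of 24 small subunit genes. Small subunit genes outside this pick lay on both sides, such as Mrps2 at 0.86 and Mrps33 at -0.53. The groups need not hold every protein of a place. Of the S18 paralogues, Mrps18a had 134 and 240 (0.40) and Mrps18b was at 1.02, and Mrps18c was on the day 3 design only.

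Other probe sets of the same gene show how far single values can be taken. Of 7 members with several measured probe sets at day 1, the brightest 2 gave ratios of the same sign for 4, against 71.5% over all genes. Mrpl40 had 98.7 in saline and 94.3 in 3-NP by its brighter probe set (-0.50) and 65.0 and 47.9 by another, whose ratio of -0.88 was below that of every other member probe set on the day 1 design. That probe set reached the array median in saline alone, so its ratio is tied to its passing. Mrpl51 gave -0.50 and -0.48. Mrpl52 gave -0.35 and -0.04, and Mrpl50 gave 0.01 and -0.24. Mrpl49 gave -0.01 and 0.10, and Mrpl57 gave 0.11 and 0.56. Mrpl37 disagreed most, at 0.39 (163 and 290) and -0.22 (56.0 and 65.0). Dimmer probe sets of Mrpl37 and Mrps26 were at the floor in both arrays, and those of Mrpl51 stayed below the filter. The members not measured at day 1 were Mrps27, with 33.7 and 42.3, and Mrps9, with 34.9 and 47.6, both above the floor.

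**Figure D3:**
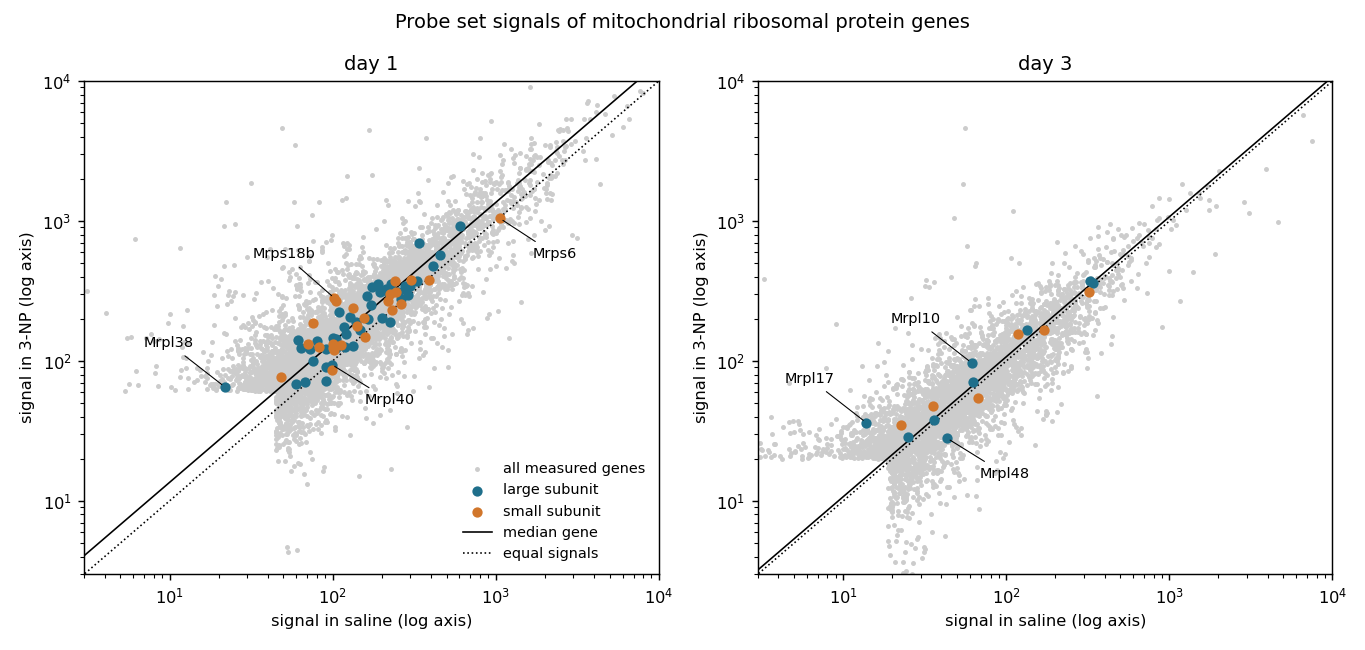
Signal in 3-NP (vertical log axis) against signal in saline (horizontal log axis) at day 1 (left) and day 3 (right), each point 1 gene; grey points are all measured genes (those under 3 on either axis are not drawn), blue the large and orange the small subunit, the solid line the median gene and the dotted line equal signals. Members follow the solid line at day 1, with Mrpl38 and Mrps18b above it.

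At day 3 members again lay around the median gene. The median of the 15 measured members was 0.10, with 0.10 for 9 large subunit genes and 0.08 for 6 small subunit genes, and 6 of 15 lay below the median gene. At least 1.5-fold higher was 1 member (background 19.1%) and at least 1.5-fold lower was 1 (background 19.9%). At least 2-fold, the counts were 1 higher (background 9.21%) and 0 lower (background 8.18%). The higher one was Mrpl17, a large subunit gene, with 13.8 in saline and 36.3 in 3-NP (2.45-fold), and without it the higher counts were 0. Mrpl48 was the lower one, with 43.3 and 28.1 (1.65-fold lower).

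Mrpl10 had 61.2 in saline and 97.1 in 3-NP (0.57), and Mrps27 had 22.7 and 34.95 (0.52). Mrps9 was at 0.30 and Mrpl47 at 0.07. Mrps18c, another S18 paralogue, had 67.3 and 54.4 (-0.41), but 32.4 and 39.0 (0.17) by its other measured probe set. The members not measured were Mrpl15, Mrps15, Mrps22 and Mrps24. Of these Mrps24 had 9.74 and 19.5, both above the floor, and Mrps22 was at the floor in both arrays. Second probe sets of Mrps2 and Mrps27 were below the filter, and that of Mrps27 was at the floor in both arrays.

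Members read on both days allow the same contrast to be set side by side on separate array pairs and, mostly, different probe sets. Of 11 such genes 9 kept the sign of their ratio, or 81.8%, against 71.6% of 1246 genes measured on both days. Across the 11 genes Pearson's r of the ratios was 0.55 and Spearman's rho 0.67, and over the 1246 genes they were 0.60 and 0.56. These are descriptions across genes, which are not independent and share their arrays. Mrpl48 was nearly equal on both days, at -0.70 and -0.73, by different probe sets. This depends on the centring, since its ratios as deposited were -0.26 and -0.63. Mrps2 was at 0.86 and 0.33, with 35.6 in saline and 47.9 in 3-NP at day 3. Mrpl14, the lowest at day 1 (-0.76), was at -0.02 at day 3 by another probe set, with 35.97 and 37.9. Mrpl17 was at 0.17 at day 1, with 603 in saline and 920 in 3-NP, and at 1.30 at day 3 by a dim probe set.

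Mrpl21, Mrpl43, Mrpl53 and Mrps26 were read by the same probe set on both designs, as 4 of the 100 probe sets outside the controls that the designs share. Mrps26 read 233 in saline against 231 in 3-NP at day 1 (-0.45), then 323 against 313 at day 3 (-0.15). Mrpl53 had 283 and 323 at day 1 (-0.24), and 342 and 361 at day 3 (-0.02). Mrpl43 had 300 and 343 at day 1 (-0.24), and 325 and 376 at day 3 (0.11). Mrpl21 had 101 and 146 at day 1 (0.10), and 134 and 167 at day 3 (0.22). All 4 relative ratios were higher at day 3 than at day 1, by 0.12 to 0.35, which depends on the centring. As deposited, Mrpl21 went from 0.54 to 0.32, Mrpl53 from 0.19 to 0.08 and Mrps26 from -0.009 to -0.046. Mrpl43 had nearly equal deposited ratios of 0.20 and 0.21.

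**Figure D4:**
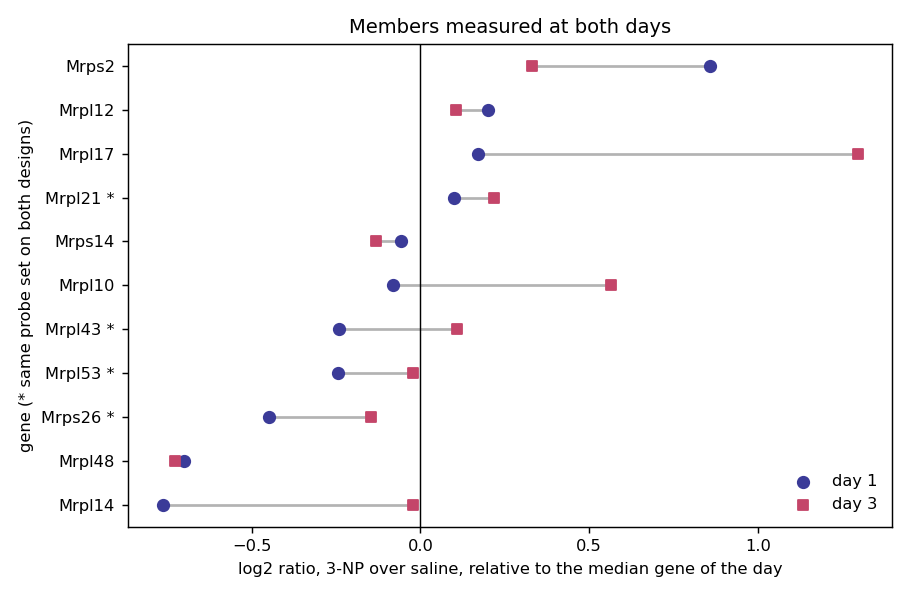
Relative log2 ratio of 3-NP over saline (horizontal axis) at day 1 (circles) and day 3 (squares) for the 11 members measured on both days (vertical axis); an asterisk marks the same probe set on both designs. Mrpl48 lies at -0.70 and -0.73 (-0.26 and -0.63 as deposited), and Mrpl10 and Mrpl43 change sides.

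The other genes of mitochondrial translation were read from fixed lists. Of ribosomal proteins under other names, 5 were measured at day 1, with a median of 0.11. Dap3, a GTP-binding small subunit protein, had 93.6 in saline and 80.3 in 3-NP (-0.66), and Chchd1 had 139 and 253 (0.42). Of 9 assembly and ribosomal RNA genes 0 were at least 1.5-fold apart at day 1, and their median was -0.02, with Ptcd1 at 0.58, Rcc1l at 0.50 and Mtg2 at -0.50. Of 7 translation factors, with a median of 0.10, 1 was at least 1.5-fold higher and 1 lower. The backgrounds at day 1 were 17.1% of all genes higher and 16.6% lower. Mrrf, the ribosome recycling factor, had 26.6 and 75.3 (1.07), and reached the array median in 3-NP alone. Mtfmt, which formylates the initiator tRNA, had 53.9 and 46.9 (-0.64), and reached it in saline alone. The elongation factor gene Tufm was at 0.10. The measured tRNA synthetase genes were Tars2 (-0.27) and Hars2 (-0.26).

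At day 3 the median of 9 measured translation factors was -0.55, with 4 at least 1.5-fold lower (19.9% of all genes were) and 0 higher. The genes read on the days largely differ, and of the 3 on both, Tufm was at 0.10 and then 0.39, Lrpprc at -0.32 and -0.04, and Mrrf at 1.07 and -0.28. Of the 4 lower genes, Mtrf1, Gfm2 and Taco1 reached the array median in saline alone, so their difference is tied to their passing. Mtif2, the initiation factor, had 147 in saline and 81.2 in 3-NP (-0.95), Mtrf1, a release factor family gene, 31.1 and 19.2 (-0.80), and Gfm2, which acts in ribosome recycling, 30.8 and 19.96 (-0.73). Of 13 tRNA synthetase and amidotransferase genes 4 were at least 1.5-fold lower and 0 higher, with a median of -0.11. Wars2 had 23.4 and 9.88 (-1.35), reaching the array median in saline alone, Nars2 67.1 and 33.3 (-1.11) and Iars2 99.9 and 63.3 (-0.76). Of 9 assembly genes, Ddx28 was lower (-0.66), and the others were within 1.5-fold, among them Tfb2m at -0.46 and Malsu1 at 0.44.

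Regulators of mitochondrial gene expression were read through 6 measured genes on each day, with no gene in common. The medians were 0.54 at day 1 and 0.65 at day 3, and they describe different genes. At day 1 the proto-oncogene Myc had 11.8 in saline, under the floor of 17.1, and 86.8 in 3-NP, at least 3.75-fold higher relative to the median gene. Gabpb1, a subunit of the ETS factor GABP, was at 0.63. Tfam, which packages mitochondrial DNA and helps to start its transcription, had 74.5 and 151 (0.58). The mitochondrial RNA polymerase gene Polrmt was at 0.51. The others were Mterf1 (-0.07) and Esrra (-0.003). Myc reached the array median in 3-NP alone. At day 3, of the coactivators of the PGC-1 family, Pprc1 had 26.4 in saline and 131 in 3-NP (2.21), Ppargc1b 15.6 and 35.2 (1.07), and Ppargc1a, the best known of them, 249.1 and 122 (-1.13). Ppargc1b reached the array median in 3-NP alone. Nrf1 was at 0.86, Yy1 at 0.44 and Gabpa at -0.75. The ribosomal members, some of which carry the letters of NRF1, ETS and YY1 motifs, had a median of 0.10 on that day.

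The respiratory chain and the cytosolic ribosome frame the members' values at day 1. The 74 measured respiratory chain and ATP synthase subunit genes had a median of -0.35 (0.09 as deposited), with 66 (89.2%) below the median gene. Of the 74, 18 (24.3%) were at least 1.5-fold lower, with a background of 16.6% of all genes, and 0 were higher. For 39 genes of the cytosolic ribosome the median was 0.41 (0.84 as deposited), with 0 below the median gene. Of the 39, 8 (20.5%) were at least 1.5-fold higher, with a background of 17.1%, and 0 were lower. The members, with a median of -0.08 (0.36 as deposited) and 40 of 69 (58.0%) below the median gene, lay between these families, and their SD of 0.42 was wider than 0.32 and 0.22. Members had a median saline signal of 142 and were dimmer than most genes of both families. Their SD was also near the 0.35 attached to 1 probe set, and the part of brightness in the wider spread was not tested. These differences between families were not tested, since genes are not replicates. At day 3 only 5 respiratory chain genes, with a median of -0.51, and the cytosolic ribosomal protein gene Rpl13a (0.48) were measured, too few to set beside the members.

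**Figure D5:**
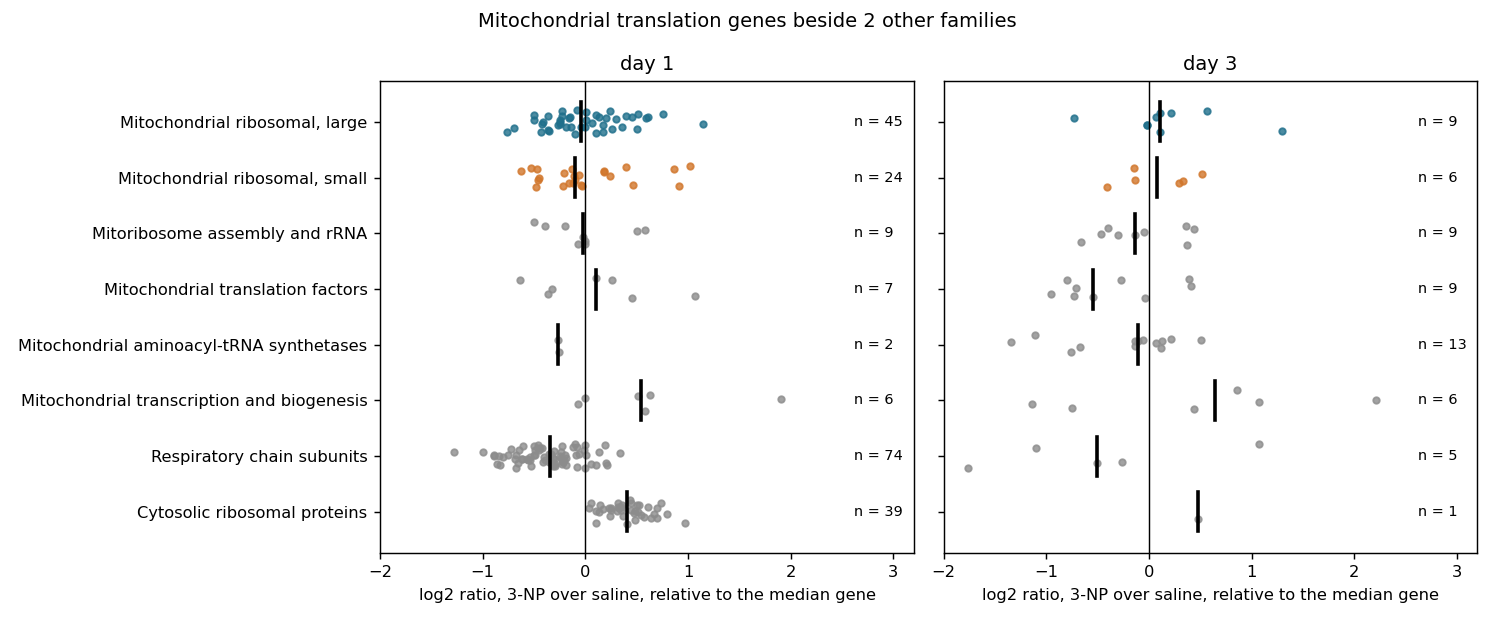
Relative log2 ratio of 3-NP over saline (horizontal axis) at day 1 (left) and day 3 (right) for the genes of each list (vertical axis); points are genes, black bars medians, and n is the number of measured genes. At day 1 both ribosomal subunits have medians near 0 (-0.05 and -0.10, or 0.39 and 0.33 as deposited), between respiratory chain subunits (-0.35, or 0.09 as deposited) and cytosolic ribosomal proteins (0.41).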

How the data were processed

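The labels' protocols give 6 µg of total RNA as the input to biotinylated cRNA. What the authors deposited is 1 linear intensity for each probe set and array. MAS5 is the tool named, per the submitters' processing notes, with its scaling target and detection calls not given in the sources here. The members and lists were chosen with earlier results of these data known.

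Symbols were read from the array annotation and updated by gene identifier to RefSeq (GRCr8), which named 10378 of 10411 genes at day 1 and 5636 of 5667 at day 3. Controls aside, 1 symbol was found for 12783 probe sets on the day 1 design, several for 312 and none for 2771 of 15866. On the day 3 design these were 7564, 100 and 7612 of 15276. Each array's 30th percentile served as a floor for its signals (17.1 and 22.0 at day 1, 9.21 and 9.83 at day 3, saline then 3-NP). The filter, probe set choice and centring on the median measured gene are given above, as are the calls of 1.5-fold and 2-fold.

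Named were the 8 highest and 8 lowest members per day, members past 1.5-fold, on both days or with several probe sets, and up to 3 genes furthest from 0 per other list. Further genes were named after their values were seen, among them Mrpl22, Mrpl46, Mrps6, Tufm, Polrmt, Nrf1, Yy1, Gabpa and the head-to-head neighbours. Ratios as deposited, quantile and lowess scaling, other floors and filters, probe set means and subunits by structure were alternatives. Python 3.11.15, NumPy 2.4.6, pandas 2.3.3 and statsmodels 0.14.6 were used, and the ratio code was tested on simulated data.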

Additional observations from a re-analysis of the deposited data

Results flagged for a closer look

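Some ratios lay on opposite sides of the median gene at day 1 and day 3, each from 1 array pair on its own array design. The differences were not tested. The large subunit median was 0.15 higher at day 3 than at day 1, and the small subunit median 0.19 higher, over largely different genes. These shifts depend on the centring. As deposited, both medians were lower at day 3, at 0.39 then 0.20 (large) and 0.33 then 0.18 (small). Mrpl10 was 0.65 higher at day 3, by another probe set (0.36 then 0.67 as deposited). Mrpl43 was 0.35 higher, by the same probe set (0.20 then 0.21 as deposited).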

How the results depend on the processing

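The main choice was the scaling. With values as deposited, the day 1 medians were 0.39 for the large and 0.33 for the small subunit, and 10 of 69 members had a ratio below 0. In that setting 23 were at least 1.5-fold higher (40.2% of all genes were) and 0 at least 1.5-fold lower (6.09% of all genes were). At least 2-fold higher were 7, for which no share over all genes was computed. Of the members past 1.5-fold, the share that was higher was 100% as deposited and 70% after centring (7 higher and 3 lower). Over all genes, 40.2% were higher and 6.09% lower as deposited, and 17.1% and 16.6% after centring. At day 3 as deposited, 3 members were at least 1.5-fold higher (23.2% of all genes were). The deposited medians on that day were 0.20 for the large and 0.18 for the small subunit. The count of members at least 2-fold higher at day 1 was 1 with a floor at the 40th percentile, 1 with a filter at the 60th percentile (which removed Mrpl38), and 1 among members above the filter in both arrays, an alternative added after seeing the data. At day 3, 2 members were at least 1.5-fold higher under quantile normalization (20.1% of all genes were). Without a filter 2 were higher (18.2% of all genes were) and 2 lower (18.5% of all genes were). Among members above the filter in both arrays at day 3, 0 were higher by 1.5-fold or 2-fold. Of 584 single-gene ratios under settings other than values as deposited, 583 moved by less than the SD of a single probe set. The remaining one was Mrpl38, at 0.77 with the floor at the 40th percentile. Several of these settings could move few members. No measured member was at the floor in the main setting, and only 7 at day 1 and 1 at day 3 had several measured probe sets. With values as deposited, 69 ratios moved by at least that SD and 15 by less. No member past 1.5-fold changed its direction under any setting run. For values as deposited this follows from the centring, since the median gene was 1.36-fold higher at day 1 and 1.07-fold at day 3. No array could be left out, since each group has 1. No paired analysis was possible because each group has 1 array and the labels give no replicate numbers.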
